A study of Danio rerio with 48 samples.

Results

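The transcripts described here are those of oxidative phosphorylation, the part of mitochondrial metabolism that passes electrons to oxygen and makes ATP. They were chosen by name: 13 mitochondrially encoded genes (names starting mt-nd, mt-co, mt-atp or mt-cyb) and 101 nuclear genes (names starting nduf, cox4 to cox8, uqcr, atp5 or sdha to sdhd), each with a mean of at least 1 CPM (read counts scaled to a common library size) over 48 embryos. These 114 genes are members of a table of 31658 entries, and all 114 passed the filter on low counts and were tested. A further 5 rows matched by name but fell under the level threshold.

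The libraries came from single whole zebrafish embryos of the RIKEN WT strain, collected at 24, 36 or 48 hours post fertilisation (hpf). Each embryo was either noc2l +/+ (wild type) or noc2l -/- (mutant), and all belonged to 1 family carrying the agu79 allele. There were 6 wild types and 9 mutants at 24 hpf, 8 and 9 at 36 hpf, and 9 and 7 at 48 hpf. Noc2, the yeast relative of Noc2l, takes part in ribosome assembly in the nucleolus. The sources used here do not state what lesion agu79 carries.

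Oxidative phosphorylation is built from products of both genomes of the cell. Complex I (NADH dehydrogenase), complex III (the cytochrome bc1 complex), complex IV (cytochrome c oxidase) and complex V (ATP synthase) each combine 1 or more subunits encoded in mitochondrial DNA with subunits imported from the cytosol, whereas complex II (succinate dehydrogenase) is nuclear throughout. Mitochondrial DNA is transcribed from both strands into long RNAs that are cut into shorter ones, and among its protein genes only mt-nd6 lies on the light strand. The nuclear genes are transcribed one by one, and several complex IV subunits come in isoforms that differ between tissues.

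By role, the mitochondrially encoded set held 7 subunits of complex I, 1 of complex III (cytochrome b, mt-cyb), 3 of complex IV and 2 of complex V. The nuclear set held 36 subunits and 8 assembly factors of complex I, 4 subunits and 4 assembly factors of complex II, and 8 subunits of complex III. It also held 21 subunits of complex IV with cox7a2l, which helps complexes III and IV associate, and 17 subunits of complex V with the inhibitors atp5if1a and atp5if1b. The members nearest the level threshold were cox5b2 (2.17 CPM), ndufa4l2a (2.56 CPM) and cox4i1l (3.95 CPM) on the inside. On the outside were cox6a2 (0.871 CPM), ndufa4l2b (0.791 CPM) and sdhda (0.789 CPM). The assay reads 3' ends, so counts do not grow with transcript length, and need no correction for it. Capture can still differ between genes, so a share or ratio of counts is not a ratio of molecules.

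Total counts per library ran from 797752 to 11016313, and the chi-square per degree of freedom between libraries of a group was at least 5.46, and no pair agreed within sampling noise. The 3 shallowest were those of embryo 4 (wild type) and embryo 8 (mutant) at 24 hpf and of wild-type embryo 9 at 48 hpf. The noc2l transcript had a lower median in mutants at each age, at 4.35 against 19.1 CPM, 5.07 against 15.7 CPM and 3.76 against 13.2 CPM, with overlapping embryos; mutant embryo 5 at 24 hpf read 16.3 CPM. Mutant embryos 5 at 24 and at 36 hpf also stood apart in several mitochondrially encoded transcripts, and results that rest on them are given with and without them. Markers of skeletal muscle, red cells, differentiated neurons and yolk were detected in every group, except ttr of the yolk list, which was at 0 in at least 1 group.

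Both sets took a growing share of all counts with age. Mitochondrially encoded members held 2.17% to 3.23% of counts in wild types at 24 hpf (median 3.05%), 3.18% to 3.73% at 36 hpf (median 3.48%) and 3.48% to 4.40% at 48 hpf (median 4.16%). In mutants the same ages gave 2.24% to 3.21% (median 3.02%), 2.82% to 3.35% (median 3.23%) and 3.60% to 4.10% (median 3.69%). The mutant medians were the lower ones at each age, with overlapping embryos, and lay closest to those of wild types at 24 hpf.

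Nuclear members held 1.31% to 2.07% of counts in wild types at 24 hpf (median 1.88%), 1.75% to 2.18% at 36 hpf (median 1.99%) and 1.99% to 2.47% at 48 hpf (median 2.36%). Mutants gave 1.35% to 2.12% (median 1.81%), 1.63% to 2.36% (median 2.13%) and 2.21% to 2.56% (median 2.44%). Here the mutant medians were the higher ones at 36 and 48 hpf, again with overlapping embryos.

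The ratio of the summed counts put these opposite shifts side by side. As log2 of mitochondrial over nuclear counts it ran from 0.78 to 0.86 in the 9 wild types at 48 hpf (mean 0.82 ± 0.03, SD) and from 0.50 to 0.76 in the 7 mutants (mean 0.65 ± 0.10, SD), so that no mutant embryo reached the lowest wild type. At 36 hpf wild types ran from 0.65 to 0.91 (mean 0.81 ± 0.10, SD, n = 8) and mutants from 0.49 to 0.79 (mean 0.64 ± 0.10, SD, n = 9), and the groups overlapped. At 24 hpf the means were 0.69 ± 0.07 (SD, n = 6) and 0.68 ± 0.11 (SD, n = 9). As linear ratios, wild types at 48 hpf held 1.72 to 1.82 mitochondrial counts per nuclear count and mutants 1.42 to 1.69. These sums are described without a test, because the genes were chosen with earlier results of these data known.

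**Figure D1:**
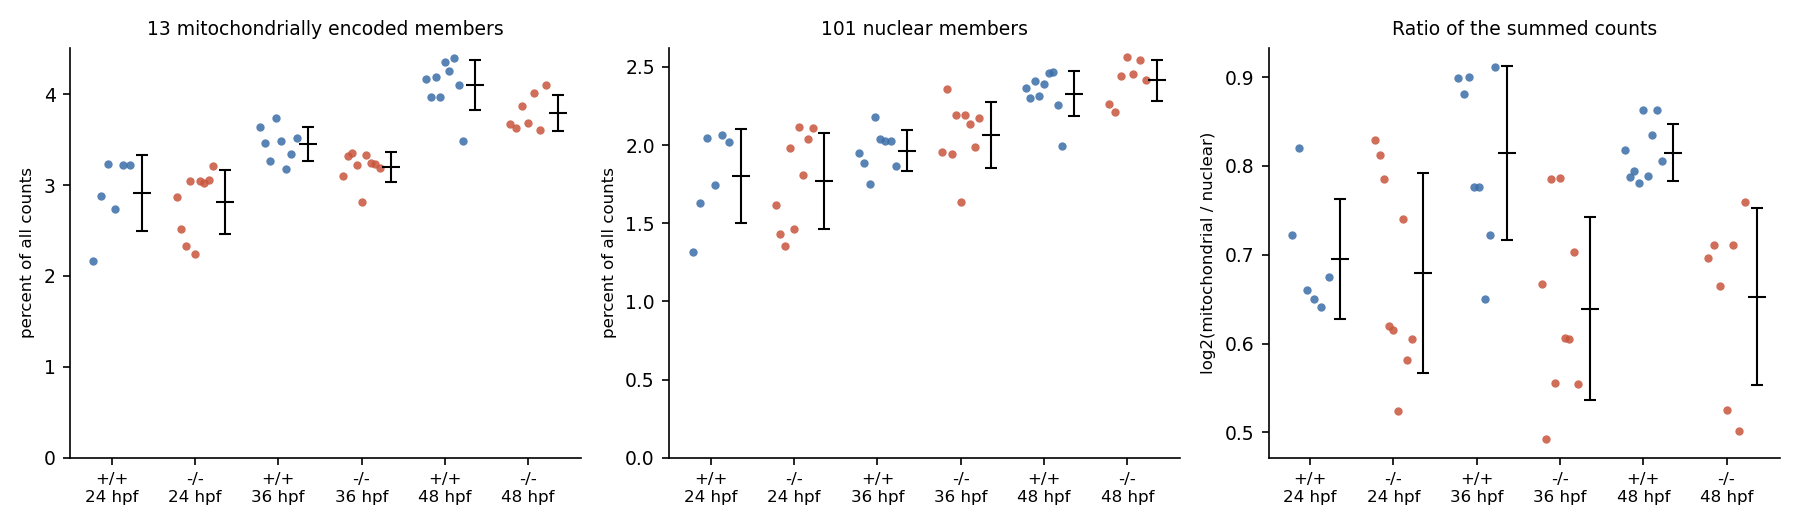
Share of all counts held by the 13 mitochondrially encoded and the 101 nuclear members (percent), and the log2 ratio of the summed counts, for every embryo by genotype and age. Points are embryos (blue +/+, red -/-), bars the mean and SD of the group. In the ratio panel, whose axis does not start at 0, the mutants at 48 hpf (0.50 to 0.76) lie below all wild types of that age (0.78 to 0.86).

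The weight of single transcripts bears on this ratio. The complex IV core transcripts mt-co2, mt-co3 and mt-co1 together with mt-atp6 made up 64.9% of the mitochondrially encoded counts, whereas the most abundant nuclear member, atp5mc3b (a c-ring subunit of ATP synthase), held 5.32% of the nuclear counts. With every member weighted equally, as mean log2(CPM + 0.5) of the mitochondrially encoded members minus that of the nuclear members, wild types at 48 hpf ran from 3.40 to 3.54 (mean 3.47 ± 0.04, SD, n = 9) and mutants from 3.18 to 3.42 (mean 3.32 ± 0.08, SD, n = 7). The mutant mean was again the lower one, but the groups then overlapped. This weighting was added after seeing the data.

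Measures of embryo stage and cell make-up are set beside the ratio here, without a test of a relation. A score of developmental age was taken from wild types, as the average log2 CPM of the 200 genes with the steepest rise less the average of the 200 with the steepest fall. It ran from 1.88 to 2.96 in wild types and from 1.32 to 2.36 in mutants at 48 hpf. In mutant embryos 1 to 7 at 48 hpf the log2 ratio was 0.70, 0.71, 0.66, 0.53, 0.71, 0.50 and 0.76, beside age scores of 1.42, 1.32, 2.16, 1.94, 2.03, 1.92 and 2.36. Embryo 7 was highest in both, embryo 6 was lowest in the ratio and embryo 2 lowest in the score. Among mutants at 36 hpf, embryos 5 and 3 had the lowest scores (-1.14 and -0.82) and the highest ratios (0.79 and 0.78). Embryo 4 had the highest score (0.33) and a ratio of 0.56, and embryo 2 (-0.04) the lowest ratio, 0.49. At 24 hpf mutant embryos 1, 2 and 3 had the highest ratios (0.83, 0.81 and 0.79) at scores of -2.76, -2.74 and -2.67. There embryo 5 (-2.68) had 0.62 and embryo 7, highest in score (-1.97), 0.74. Wild types had a mean ratio of 0.69 at 24 hpf, 0.81 at 36 hpf and 0.82 at 48 hpf. The part of developmental stage in the result was not tested. Summed skeletal muscle markers (15 of 15 in the table) were at 43204 to 58195 CPM in wild types and 38377 to 51538 CPM in mutants at 48 hpf, and 2 of 15 were called lower, where 0.712% of all genes were. Ionocytes, skin cells rich in mitochondria, had summed markers (10 of 10 in the table, slc9a3.2 and rhcgb at 0 in at least 1 group) of 84.7 to 120 CPM and 73.6 to 116 CPM. Of 8 tested ionocyte markers 0 were called. Summed heart markers had the higher median in mutants, at 171 CPM against 154 CPM, and 0 of 6 tested were called. Red cells had 1 of 7 markers called higher and 1 lower, where 1.49% and 0.712% of all genes were. Neurons had 0 of 8 called, and yolk had 1 of 5 tested called lower. The part of these cell types in the result was not tested. In whole embryos fewer cells of a type and less RNA per cell cannot be told apart.

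Taken complex by complex, the ratio at 48 hpf was without overlap between genotypes only in complex V. The log2 ratio of mt-atp6 and mt-atp8 to the 17 nuclear subunits of ATP synthase ran from -0.40 to -0.15 in wild types and from -0.92 to -0.42 in mutants. The nearest embryos were wild-type embryo 2 at -0.404 and mutant embryo 7 at -0.416. This ratio rests largely on counts of 1 mitochondrial gene, mt-atp6, with a mean of 4841 CPM over all embryos against 128 CPM for mt-atp8. Whether the counts of mt-atp8 stand for an RNA apart from that of mt-atp6 was not determined, so mt-atp8 values are uncertain. For complex I, 7 mitochondrial against 36 nuclear subunits, it ran from 0.97 to 1.10 in wild types and from 0.51 to 1.01 in mutants, with the single overlapping mutant being embryo 7. Complexes III (0.89 to 1.17 against 0.81 to 1.11) and IV (1.52 to 1.64 against 1.42 to 1.61) overlapped widely. At 36 hpf complex I gave 0.84 to 1.15 in wild types and 0.57 to 0.85 in mutants, where mutant embryo 7 and wild-type embryo 6 overlapped, and complex V -0.83 to -0.36 against -0.84 to -0.19. The upper end of that mutant range was embryo 5 alone, and the other 8 mutants ran from -0.84 to -0.63 in complex V and from 0.61 to 0.85 in complex I. Mean complex I ratios of mutants were lower at both later ages, at 0.73 against 0.99 and at 0.81 against 1.02.

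**Figure D2:**
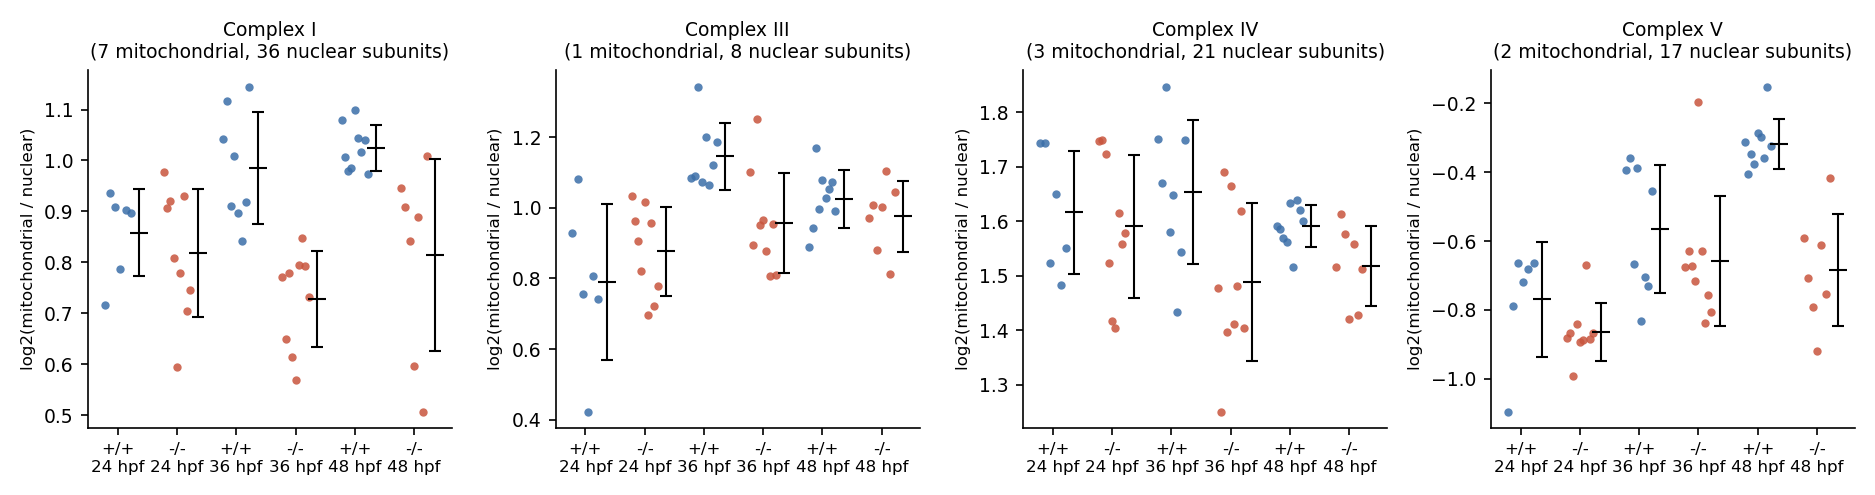
Log2 ratio of mitochondrially encoded to nuclear subunit counts within complexes I, III, IV and V, for every embryo by genotype and age; points are embryos (blue +/+, red -/-), bars the mean and SD of the group, and axes differ between panels and do not start at 0. In complex V at 48 hpf the mutants (-0.92 to -0.42) lie below all wild types (-0.40 to -0.15).

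Single genes were then compared between mutants and wild types at each age. None of the 114 members passed the test at any age (edgeR quasi-likelihood F-test, adjusted p over all 16431 genes under 0.05), where 0.122% of all tested genes were called in either direction at 24 hpf, 0.706% at 36 hpf and 2.2% at 48 hpf. At an unadjusted p under 0.05 stood 0, 5 and 4 of 13 mitochondrially encoded and 3, 1 and 4 of 101 nuclear members at the 3 ages. The share of all tested genes at that level was not taken, so these counts are not read as a result. Limma voom called none, and DESeq2 called 1, COX7A2 at 24 hpf. No member had groups whose ranges were apart at any age, and the share of all genes with ranges apart was not taken.

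The direction of the estimates differed between the sets. At 48 hpf all 13 mitochondrially encoded members had negative estimates with a median log2 difference of -0.14, at 36 hpf 12 of 13 with a median of -0.11, and at 24 hpf 6 of 13 with a median of 0.02. The count at 48 hpf includes mt-co1 at -0.0049, whose sign changed in some alternatives. These members are cut from shared long RNAs and were measured in the same embryos, so their signs are not separate observations. How many of all tested genes had a negative estimate was not taken, so counts of signs are not read as a result. Nuclear members were divided, with 55 positive and 46 negative at 48 hpf and medians of 0.04, 0.02 and 0.01 at 24, 36 and 48 hpf, beside medians of 0.02, -0.01 and -0.02 over all tested genes. With the age score as a covariate the mitochondrial median at 48 hpf was -0.01 and that of the nuclear members 0.19, and 3 nuclear members were then called higher: atp5mf and atp5pf of ATP synthase and ndufab1a, the acyl carrier protein of complex I, at 0.42, 0.46 and 0.42 (edgeR adjusted p = 0.026, 0.0231 and 0.0117). The share of all genes called with this covariate was not taken.

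At 48 hpf the smallest p among mitochondrially encoded members belonged to mt-atp6, the subunit of the ATP synthase proton channel. It ran from 5082 to 7356 CPM in wild types (median 6941) and from 4651 to 6578 CPM in mutants (median 5362). The genotypes overlapped, and the lowest wild type was the shallow embryo 9 at 5082 CPM and the highest mutant embryo 7 at 6578 CPM. The log2 difference was -0.31 (SE 0.12; edgeR adjusted p = 0.19), and with the age score as a covariate -0.10.

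The complex I core subunits mt-nd1, mt-nd2 and mt-nd4, which form part of the proton-pumping membrane arm, showed the next values at 48 hpf. The log2 difference was -0.27 (SE 0.10) for mt-nd1, -0.24 (SE 0.10) for mt-nd2 and -0.22 (SE 0.09) for mt-nd4. In that order the adjusted p of edgeR was 0.20, 0.35 and 0.25. For mt-nd1 wild types ran from 1917 to 2790 CPM (median 2422) and mutants from 1783 to 2509 CPM (median 1897). For mt-nd4 wild types ran from 1740 to 2177 CPM (median 1977) and mutants from 1398 to 1957 CPM (median 1733). A fit on the embryos of 48 hpf alone, with its own estimate of the spread, called mt-atp6 (-0.30, edgeR adjusted p = 0.0104) and mt-nd1 (-0.26, adjusted p = 0.0446) lower, together with cox6b1 (-0.46, adjusted p = 0.021), a nuclear subunit of complex IV. The share of all genes called in that fit was not taken, so these calls have no background beside them.

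Among the complex IV core the catalytic subunit mt-co1 at 48 hpf read 4079 to 6629 CPM in wild types (median 5694) and 5247 to 5801 CPM in mutants (median 5565), with a log2 difference of -0.00 (SE 0.10) whose sign changed in 4 of the alternatives. For mt-co2, which receives electrons from cytochrome c, and mt-co3 the differences were -0.05 (SE 0.08) and -0.14 (SE 0.09), and for mt-cyb -0.05 (SE 0.08). The remaining mitochondrially encoded members gave -0.20 (mt-nd5), -0.29 (mt-atp8), -0.12 (mt-nd3), -0.10 (mt-nd4l) and -0.07 (mt-nd6).

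At 36 hpf the estimates furthest below 0 were those of mt-nd6 at -0.47 (SE 0.20; edgeR adjusted p = 0.51) and mt-nd3 at -0.30 (SE 0.14; edgeR adjusted p = 0.59), followed by mt-nd2 (-0.23), mt-co1 (-0.22) and mt-nd1 (-0.21). Only mt-atp8 was above 0, at 0.41 (SE 0.21; edgeR adjusted p = 0.68), and mutant embryo 5 held its highest value of 400.1 CPM. Without mutant embryos 5 these differences were -0.39 (SE 0.19) for mt-nd6, -0.18 (SE 0.09) for mt-nd3 and 0.11 (SE 0.14) for mt-atp8.

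Light-strand mt-nd6 fell into separate levels among mutants of 36 hpf. Embryos 2, 4, 5 and 6 read 272, 237, 249 and 288 CPM, whereas the other 5 read 585 to 741 CPM. Wild types of that age read 588 to 763 CPM apart from embryo 6 at 374 CPM, and mutant embryo 5 at 24 hpf read 303 CPM against 471 to 657 CPM in the other mutants. At 48 hpf levels were 509 to 991 CPM in wild types and 520 to 880 CPM in mutants. How strand was handled in the counting is not stated in these sources, so reads of mt-nd6 and of RNA from the opposite strand at that place cannot be told apart.

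**Figure D3:**
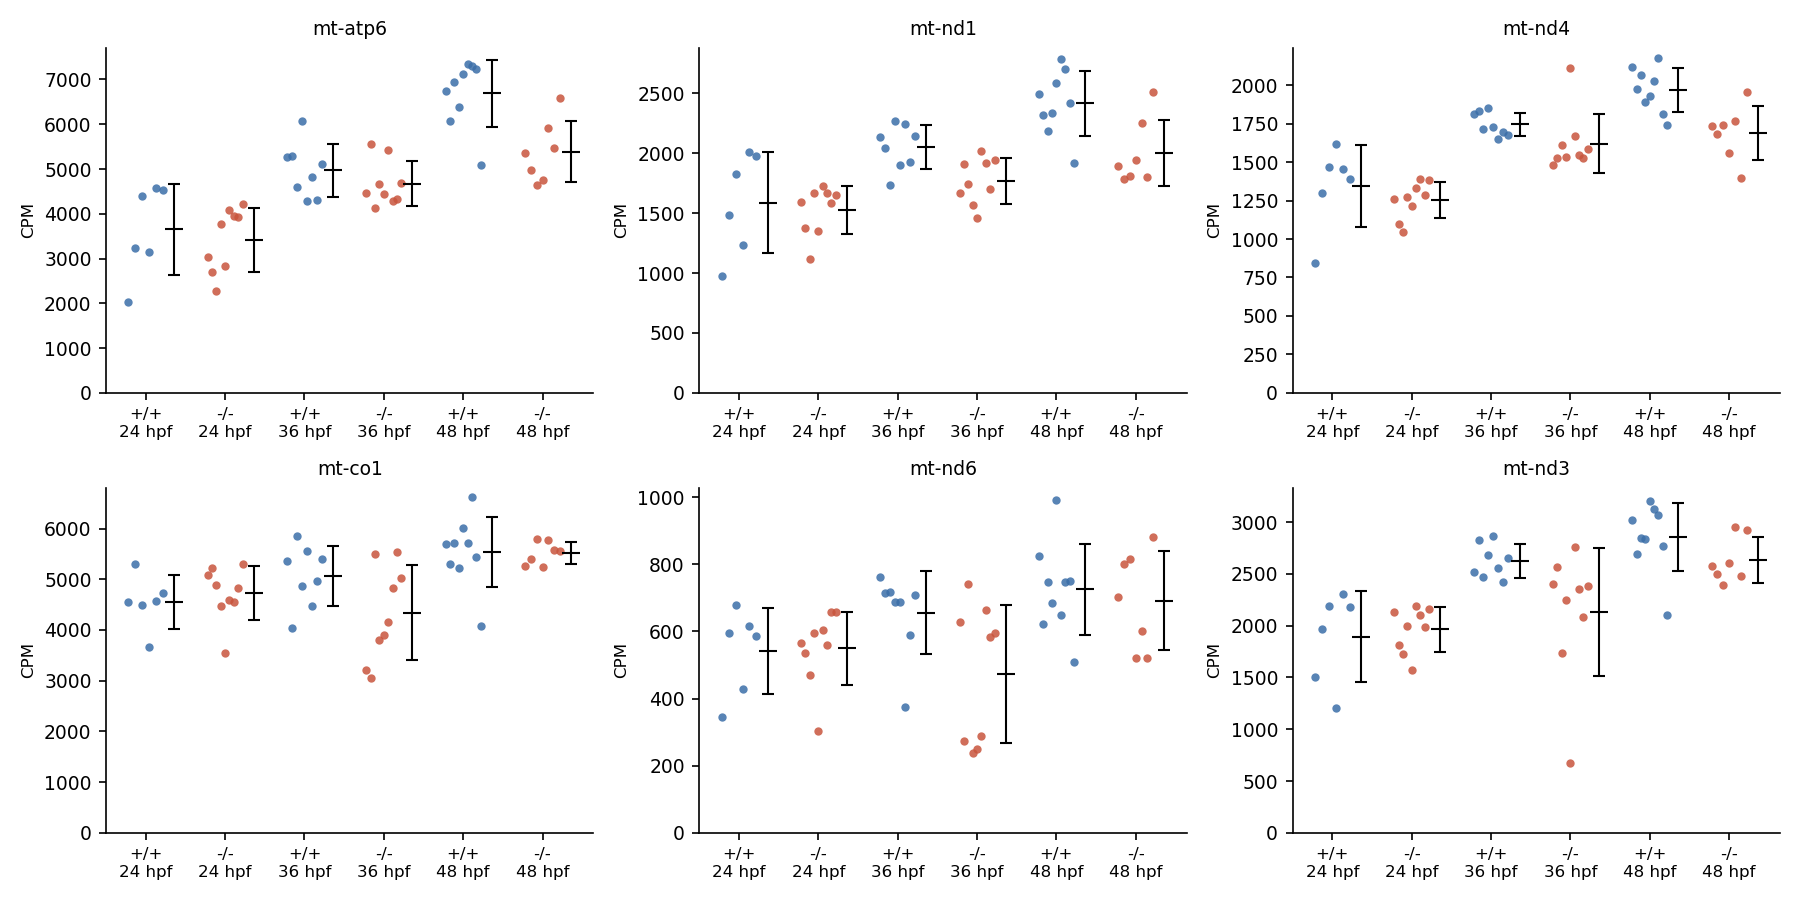
Levels of 6 mitochondrially encoded members (CPM) in every embryo by genotype and age; points are embryos (blue +/+, red -/-), bars the mean and SD of the group. The mt-nd6 panel shows 4 mutants of 36 hpf at 237 to 288 CPM and 5 at 585 to 741 CPM, and the mt-nd3 panel 1 mutant of that age at 669 CPM.

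Mutant embryo 5 at 36 hpf departed from its group in several mitochondrially encoded members at once. It read 669 CPM of mt-nd3 against 1734 to 2764 CPM in the other mutants, 400.1 CPM of mt-atp8 against 96.5 to 187 CPM, and 2109 CPM of mt-nd4 against 1478 to 1673 CPM. Its age score was the lowest of its group at -1.14. At 24 hpf mutant embryo 5 was highest in mt-co2 (7467 CPM) and mt-atp8 (161 CPM) and lowest in mt-co1 (3550 CPM). Without both embryos no member was called between genotypes either.

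Few nuclear members had an unadjusted p under 0.05 between genotypes, and their number is not read as a result. COX7A2, a structural subunit of complex IV, read 19.6 to 49.7 CPM in wild types at 24 hpf (median 39.6) and 40.9 to 85.3 CPM in mutants (median 49.8), a log2 difference of 0.64 (SE 0.16; edgeR adjusted p = 0.086). Mutant embryos 1, 2, 3 and 5, with age scores of -2.76 to -2.67, held 62.8 to 85.3 CPM of it, and the other 5, with scores of -2.29 to -1.97, held 40.9 to 49.8 CPM. With the age score as a covariate the difference was 0.55 (edgeR adjusted p = 0.24), and DESeq2 alone gave an adjusted p under the threshold, at 0.0458. The rows COX7A2 and cox7a2a both match 1 RefSeq gene, cox7a2a (GRCz12tu). Whether they stand for separate genes or for copies between which the counting divided reads was not determined, and values of both are uncertain.

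The other nuclear genes of this kind, named here after their values were seen, belonged to complexes I, III and IV. They were ndufs3 (-0.27 at 24 hpf and -0.19 at 48 hpf) and ndufv3 (0.23 at 24 hpf) of the peripheral arm of complex I, ndufa7 (-0.28 at 48 hpf), uqcrc1, a core protein of complex III (-0.21 at 48 hpf), and cox4i1l (-1.07 at 36 hpf and -1.17 at 48 hpf). Their edgeR adjusted p lay between 0.288 and 0.614. By complex, nuclear medians at 48 hpf ran from -0.06 (complex III) to 0.04 (complex V) for subunits, and the 8 assembly factors of complex I had a median of 0.13. Subunits of complex II, which has no mitochondrially encoded part, gave -0.16 to 0.01.

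Whether the genotype difference itself changed with age was tested as an interaction. No member passed for 36 against 24 hpf, 48 against 36 hpf or 48 against 24 hpf, by edgeR, DESeq2 or limma voom, where edgeR called 0.0%, 0.0548% and 0.0609% of all genes. An unadjusted p under 0.05 was reached by 1, 1 and 1 mitochondrially encoded and by 4, 2 and 5 nuclear members. The share of all genes at that level was not taken. The largest of these estimates for a mitochondrially encoded gene was mt-atp8, at -0.70 (SE 0.30) for 48 against 36 hpf, which was -0.38 (SE 0.20) without mutant embryos 5.

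**Figure D4:**
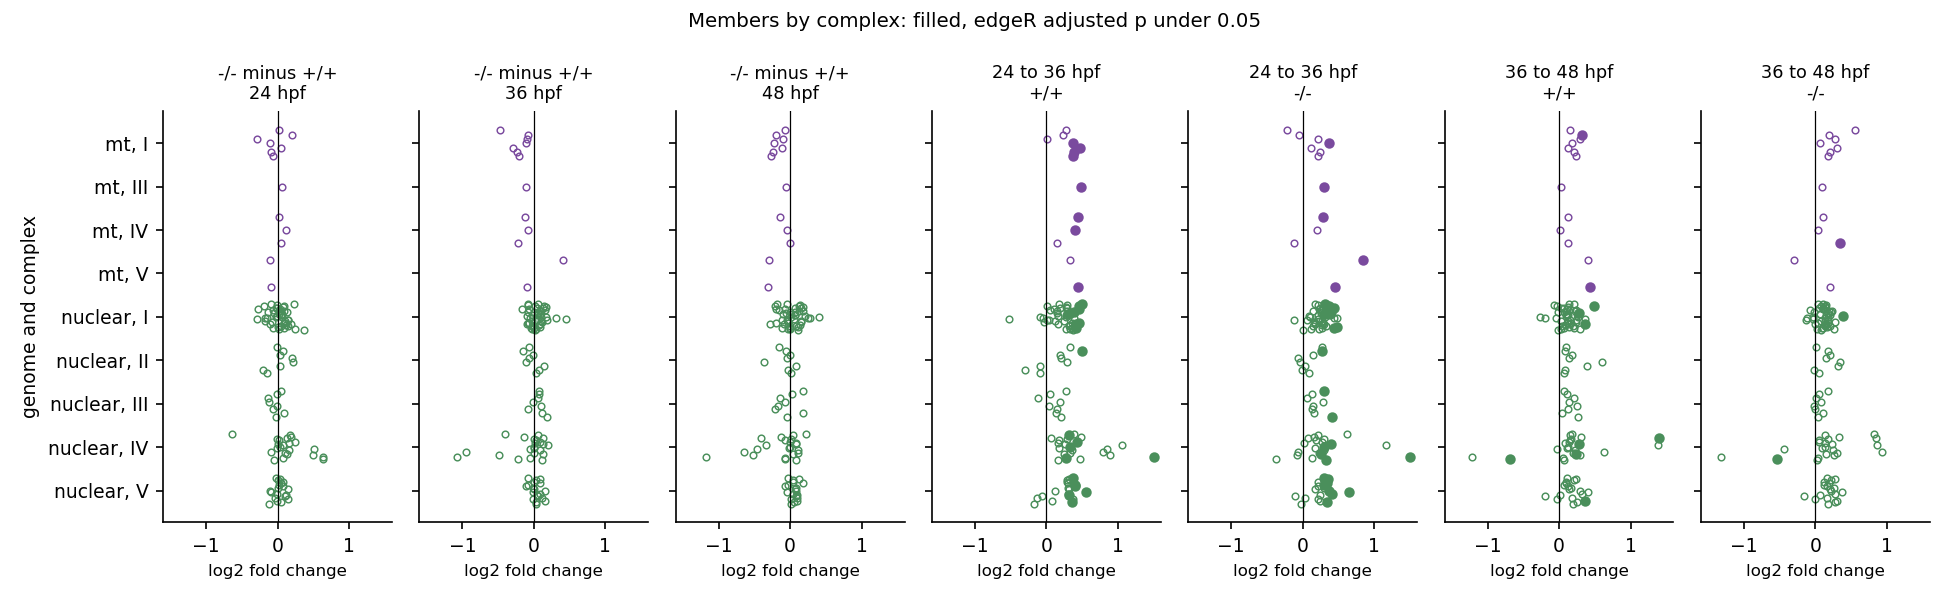
Log2 fold changes of the 114 members by genome of origin and complex, for mutant minus wild type at each age and for later minus earlier age within each genotype; mitochondrial members are purple and nuclear members green, and filled points passed the edgeR test, open points did not. Values beyond 1.5 are drawn at 1.5. In the 3 genotype panels no point is filled and the mitochondrial points of 48 hpf lie at or left of 0; in both panels for 24 to 36 hpf the filled points lie right of 0.

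The clearest changes of the members were with age. From 24 to 36 hpf in wild types, 8 of 13 mitochondrially encoded and 21 of 101 nuclear members rose and none fell (edgeR adjusted p under 0.05), while 4.95% of all genes were called higher and 3.52% lower. The median log2 changes were 0.38 and 0.29 beside 0.01 over all genes. Cell type markers called higher over the same interval were 13 of 15 for skeletal muscle (median 1.14), 7 of 7 for red cells (median 1.40) and 6 of 8 for neurons (median 0.76). For yolk they were 2 of 5 tested (median 0.18), for heart 1 of 6 (median -0.03) and for ionocytes 0 of 8 (median 0.42). The part of these cell types in the rise was not tested. None of the members with a negative estimate had an unadjusted p under 0.05, and DESeq2 and limma voom called none lower. Without the shallow libraries, of which wild-type embryo 4 at 24 hpf enters this comparison, 5 mitochondrially encoded members were called. For nuclear members, 33 were called without mutant embryos 5, which share the estimate of spread, and 11 in a fit on these groups alone. The share of all genes called was not taken for these other fits, so their counts are not set against 4.95%.

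Mitochondrially encoded transcripts that rose in wild types from 24 to 36 hpf covered complexes I, III, IV and V. Cytochrome b, mt-cyb, ran from 2000 to 2883 CPM at 24 hpf and from 3245 to 3995 CPM at 36 hpf, without overlap (0.48, SE 0.09; edgeR adjusted p = 6.64e-05). The next smallest p belonged to mt-co2 (0.40, SE 0.08), mt-co3 (0.44, SE 0.10) and mt-nd4 (0.38, SE 0.09). Also called were mt-atp6 (0.44), mt-nd2 (0.38), mt-nd1 (0.37) and mt-nd3 (0.47). Not called were mt-nd5 (0.23), mt-co1 (0.15), mt-atp8 (0.33), mt-nd6 (0.27) and mt-nd4l (0.01). Of the 13, 5 had ranges apart between the ages, and the share of all genes with ranges apart was not taken.

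Nuclear rises over the same interval were spread over the complexes. They comprised 9 of 36 subunits of complex I, 1 of 4 of complex II, 0 of 8 of complex III, 5 of 21 of complex IV, 5 of 17 of complex V and 1 of 2 ATP synthase inhibitors, atp5if1b. No assembly factor of complexes I or II was called, and their medians were 0.02 and 0.05. Ranges were apart between these ages in 4 of 101 nuclear members, again without a share of all genes. They included sdhc, a membrane anchor of complex II, the complex I subunit ndufa10, and ndufa4l.

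After cox4i1l, described below, the largest of these rises were those of atp5mc1, ndufv3, sdhc and ndufa9a. For sdhc the wild types ran from 76.8 to 101 CPM at 24 hpf and from 107 to 148 CPM at 36 hpf (0.49, SE 0.10; edgeR adjusted p = 0.000536). For atp5mc1, a c-ring subunit, they ran from 182 to 428 CPM and from 415 to 575 CPM (0.56, SE 0.17; edgeR adjusted p = 0.0302), and the call did not pass without the shallow libraries. For ndufv3 and ndufa9a the changes were 0.50 and 0.46.

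The other subunits of complex II were called in no age interval of wild types. The flavoprotein sdha had medians of 60.6, 55.7 and 58.8 CPM at 24, 36 and 48 hpf, the iron-sulphur protein sdhb 60.7, 74.0 and 88.5 CPM, and the anchor sdhdb 85.5, 101 and 108 CPM. Their ranges overlapped between neighbouring ages.

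In mutants from 24 to 36 hpf, 5 of 13 mitochondrially encoded and 29 of 101 nuclear members rose and none fell, where 6.09% of all genes were called higher and 4.97% lower. The medians were 0.21 and 0.25, and without the shallow libraries 46 nuclear members were called higher and 1 lower. The share of all genes called was not taken for that fit, so the 46 are not set against 6.09%. Of the 8 mitochondrially encoded members called in wild types and the 5 called in mutants, 4 were shared (mt-atp6, mt-co3, mt-nd4 and mt-cyb), which is 50.0% of the first and 80.0% of the second list. For nuclear members 12 were shared, 57.1% of the wild-type and 41.4% of the mutant list. Among mitochondrially encoded members mt-atp8 (0.84, SE 0.20) was called in mutants and not in wild types, and its 400.1 CPM in mutant embryo 5 is given above. Without mutant embryos 5 it rose by 0.70 (SE 0.14). In that fit mt-co2 was also called in mutants, at 0.28 (edgeR adjusted p = 0.00322), against 0.20 and no call with all embryos. As mt-co2 was called in wild types in both fits, the shared list and its percentages depend on mutant embryos 5. A call in 1 genotype does not show a difference between them, and the interaction test called none.

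From 36 to 48 hpf fewer members passed. In wild types 2 of 13 mitochondrially encoded members rose, mt-atp6 (0.43, SE 0.11; edgeR adjusted p = 0.00385) and mt-nd5 (0.31, SE 0.10; adjusted p = 0.0289). Of 101 nuclear members 7 were higher and 1 lower, against 6.77% and 7.74% of all genes. The nuclear calls were thus near the share of all genes for rises and below it for falls. All 13 mitochondrially encoded estimates were positive, with a median of 0.18, and the nuclear median was 0.14. The nuclear rises were cox8b (1.39), ndufs8a (0.49), atp5f1d (0.37), ndufa7 (0.36), ndufb6 (0.28), cox7a2a (0.28) and cox5aa (0.23). Without wild-type embryo 9, the shallow library of 48 hpf, and those of 24 hpf, 13 nuclear members were called higher, and a fit on these groups alone called 22. The share of all genes called was not taken for these 2 fits, so 13 and 22 are not set against 6.77%. In mutants mt-co1 (0.35, SE 0.10; edgeR adjusted p = 0.0103) and ndufb11 (0.38) rose and COX7A2 fell, against 4.75% and 5.26% of all genes. With 1 of 101 higher and 1 lower, the nuclear calls in mutants were below both shares.

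The rise of ATP synthase transcript mt-atp6 in wild types continued through both intervals. Its median went from 3814 CPM at 24 hpf to 4962 CPM at 36 hpf and 6941 CPM at 48 hpf. In mutants it went from 3768 to 4466 and 5362 CPM, with a change from 36 to 48 hpf of 0.21 (SE 0.11) that did not pass (edgeR adjusted p = 0.30). The difference between these genotype effects, 48 against 36 hpf, was -0.22 (SE 0.16) and did not pass either.

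Among minor isoforms of complex IV subunits, cox4i1l and cox8b were called with age, whereas cox4i2, cox5b2 and cox7a1 were not. The row cox4i1l, whose name marks it as a cox4i1-like gene, read 0.0 to 2.08 CPM in wild types at 24 hpf (median 0.323), 0.683 to 26.3 CPM at 36 hpf (median 8.81) and 0.637 to 11.03 CPM at 48 hpf (median 3.40). It rose from 24 to 36 hpf by 3.72 (SE 0.71; edgeR adjusted p = 0.000198) in wild types and by 2.00 (SE 0.53; adjusted p = 0.0073) in mutants, with wide spread and with 0 to 11 counts per wild-type library at 24 hpf. The abundant cox4i1, which encodes the common form of the subunit, ran from 359 to 557 CPM and from 530 to 620 CPM at these ages (0.27).

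Among the cox8 genes, cox8a had wild-type medians of 478, 559 and 636 CPM. The minor cox8b had medians of 3.52, 4.14 and 9.58 CPM and rose from 36 to 48 hpf by 1.39 (SE 0.42; edgeR adjusted p = 0.0181). In mammals the cox8b isoform is known from heart and skeletal muscle. Summed skeletal muscle markers in wild types rose over the same ages from a median of 14016 CPM to 31581 and 48809 CPM. Of these 15 markers 13 and 6 were called higher in the intervals, against 4.95% and 6.77% of all genes. Summed heart markers had medians of 138, 162 and 154 CPM, with 1 and 0 of 6 tested called higher. The median log2 change of heart markers from 36 to 48 hpf was -0.16. The part of muscle and heart in the result was not tested.

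In the fit of all 48 libraries COX7A2 was the only member called lower in an age comparison. A fit on the mutants of 36 and 48 hpf alone called 2 nuclear members lower, and its share of all genes was not taken. COX7A2 had wild-type medians of 39.6, 54.3 and 29.9 CPM and fell from 36 to 48 hpf by 0.69 on the log2 scale (SE 0.14; edgeR adjusted p = 0.00016), and in mutants by 0.54 (SE 0.15; adjusted p = 0.00783). Over the same interval cox7a2a, with medians of 254 and 331 CPM, rose in wild types (0.28; edgeR adjusted p = 0.0389). The muscle-type cox7a1 read 0.0 to 23.5 CPM at 48 hpf in wild types and was not called. In mutants the change of COX7A2 from 24 to 36 hpf was -0.38, against 0.48 in wild types, and neither passed (edgeR adjusted p = 0.0573 and 0.0508).

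Other isoform pairs within complexes IV and V had medians that mostly increased with age. In wild types at 24, 36 and 48 hpf cox5aa read 326, 361 and 434 CPM, cox5ab 134, 166 and 182 CPM and COX5B 385, 422 and 448 CPM. The minor cox5b2 read 1.12, 2.23 and 3.76 CPM, and cox4i2, known in mammals as the lung form of subunit 4, read 5.11, 9.53 and 12.1 CPM. Medians of cox6a1 were 386, 503 and 591 CPM, of cox6b2 569, 629 and 693 CPM and of cox6b1 29.1, 64.3 and 63.6 CPM.

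For ndufa4, first assigned to complex I and now to complex IV, medians were 76.6, 116 and 145 CPM, and for ndufa4l 373, 458 and 529 CPM. The c-ring genes atp5mc1 and atp5mc3b had medians of 330, 473 and 632 CPM and of 930, 1122 and 1275 CPM, and atp5mc3a 405, 406 and 489 CPM. Of the ATP synthase inhibitors, which block the reverse reaction, atp5if1b rose from 24 to 36 hpf with medians of 164, 206 and 219 CPM, while atp5if1a had medians of 141, 127 and 115 CPM and was not called.

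**Figure D5:**
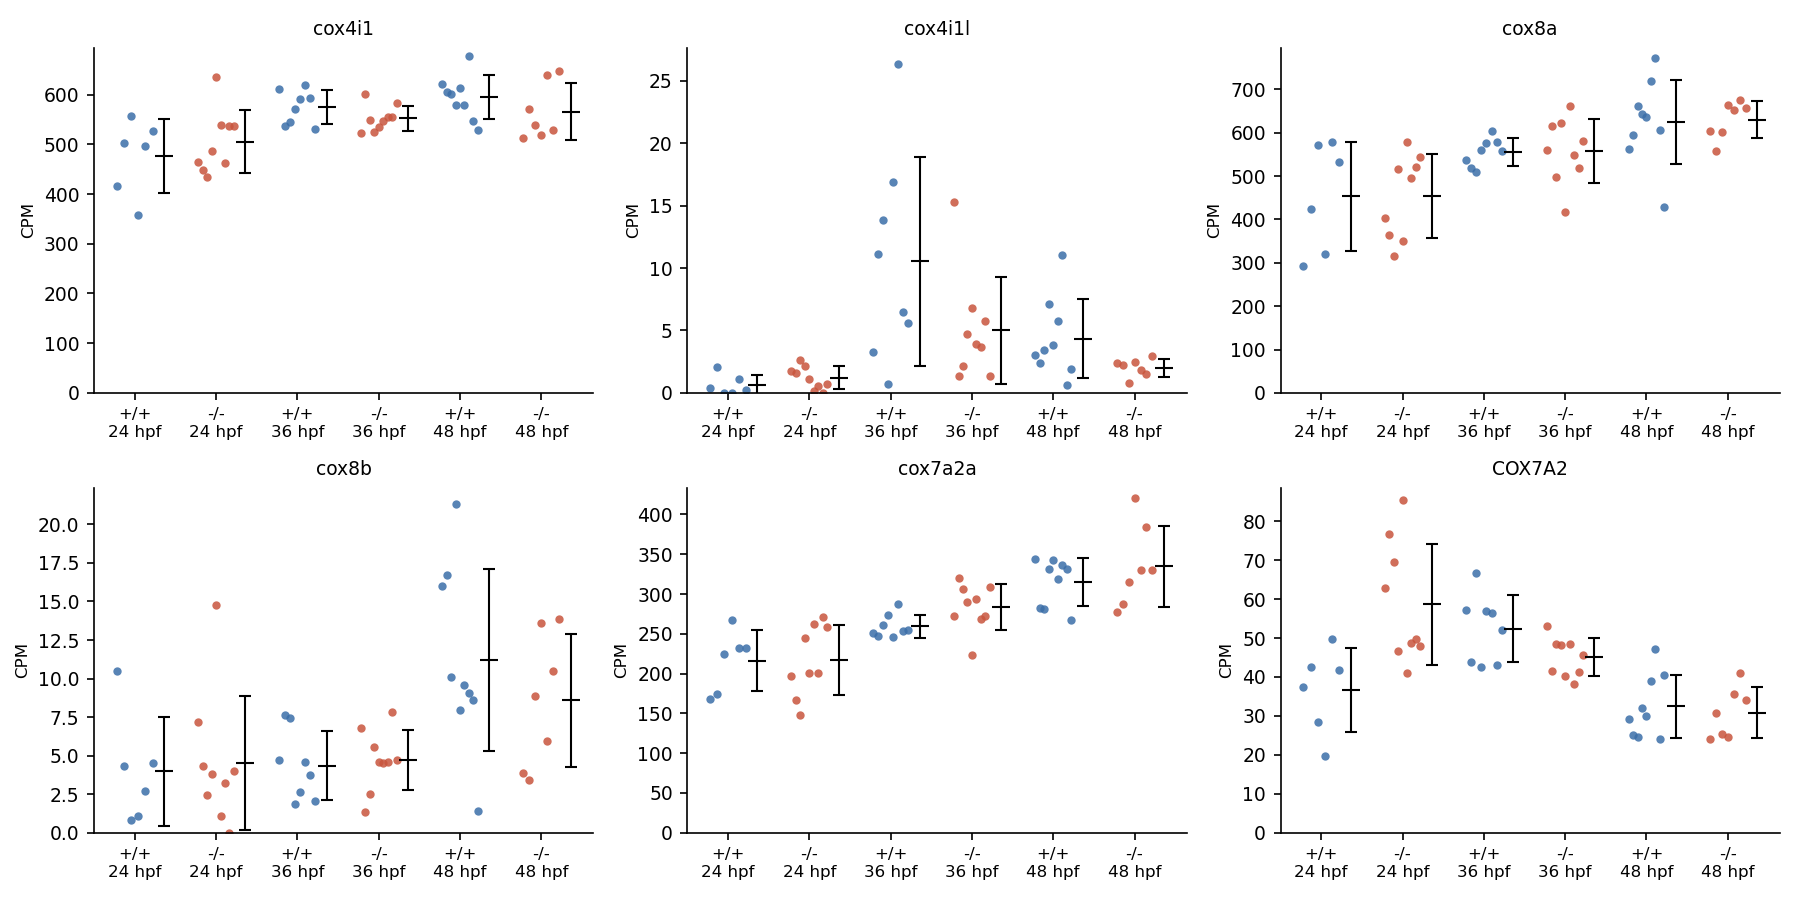
Levels of 6 rows for complex IV subunits 4, 8 and 7a2 (CPM), of which COX7A2 and cox7a2a match 1 RefSeq gene, in every embryo by genotype and age; points are embryos (blue +/+, red -/-), bars the mean and SD of the group. COX7A2 fell from 36 to 48 hpf in both genotypes, and cox4i1l scattered up to 26.3 CPM at 36 hpf.

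Neighbouring genes of the pathway, from lists of genes outside the members, had calls between genotypes in 2 lists, the mitochondrial ribosomal proteins and the carriers. Mitochondrial ribosomal proteins, which serve translation of the mitochondrially encoded members, had 3 of 76 genes higher at 36 hpf (mrpl9, mrpl12 and mrpl18) and 8 of 76 at 48 hpf, none lower, with medians of 0.19 and 0.25. Over all genes 0.615% were called higher and 0.0913% lower at 36 hpf, and 1.49% and 0.712% at 48 hpf. The largest rise at 48 hpf was that of mrpl39 (0.67, SE 0.15; edgeR adjusted p = 0.00376), and mrpl12 rose by 0.51 (SE 0.12) at 36 hpf and by 0.47 (SE 0.12) at 48 hpf. At 24 hpf none was called, and the median was 0.07. At both of these ages the mitochondrially encoded members had negative medians with no call.

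Of 13 tested genes for mitochondrial transcription and genome maintenance none was called between genotypes, and their median at 48 hpf was 0.38. The transcription factor tfam gave 0.11 (SE 0.11) and the single-strand binding protein ssbp1 0.30 (SE 0.13). Translation factors (9 tested, median -0.07) and regulators of mitochondrial gene programmes (6 tested, median -0.02) had no call at 48 hpf. Assembly factors of complexes I (8 genes outside the name rule), III (6), IV (21) and V (3) had none either, with medians of 0.10, 0.08, 0.09 and 0.20. Cytochrome c and the complex III subunit cyc1 (2 tested) had a median of 0.10.

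The carrier slc25a4, which exchanges ADP and ATP across the inner membrane and is the muscle form in mammals, was lower in mutants. Its log2 difference was -0.72 (SE 0.18; edgeR adjusted p = 0.0291) at 36 hpf and -0.94 (SE 0.18; adjusted p = 0.000983) at 48 hpf. Of the carriers 3 were tested and 1 was called lower at each of these ages, with list medians of 0.02 and -0.12. Of all genes 0.0913% and 0.712% were called lower. The transcript slc25a4 rose with age in wild types by 2.07 and 0.90. At 48 hpf 2 of 15 muscle markers, tnnt3a and myoz1b, were called lower in mutants. The part of muscle in this result was not tested.

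Over the interval in which members rose, 2 of 6 tested regulators and 1 of 13 genes of transcription and maintenance fell, where 3.52% of all genes were called lower. In wild types from 24 to 36 hpf these were pprc1 (-0.94, SE 0.24), a coactivator of the PGC-1 family, gabpa (-0.52, SE 0.16), a factor that binds promoters of many nuclear members, and ssbp1 (-0.44, SE 0.14), with edgeR adjusted p of 0.00591, 0.024 and 0.0301. Mitochondrial ribosomal proteins had a median of -0.08 with 1 of 76 higher over that interval, where 4.95% of all genes were called higher.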

How the data were processed

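Single-embryo 3' RNA-seq libraries were deposited by the authors as a table of expected counts per gene for 48 libraries. Per the submitters' processing notes, reads passed through fastp 0.21.0, BWA 0.7.17-r1188 and Salmon (no version stated) with the GRCz11 build. Groups came from the titles, and a second deposited table of sample descriptions was not used.

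Expected counts were rounded to whole numbers (2 values differed from a whole number by more than 1e-06). Of 31658 entries 3197 had no count, and filterByExpr with a minimum count of 10 kept 16431 genes holding 99.8% of counts. All 48 libraries were fitted with 6 group means in edgeR 4.0.16 (quasi-likelihood F-test, R 4.3.3), with Benjamini-Hochberg adjustment over all tested genes at 0.05. The common biological coefficient of variation was 31.1%, and levels are TMM-scaled CPM. Because all embryos came from 1 family, p-values concern the spread between these embryos. The fit was tested on simulated data. Python 3.11.15, pandas 2.3.3, numpy 2.4.6 and matplotlib 3.10.9 made summaries and plots.

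Gene names were matched ignoring case, which brought in NDUFB1, COX7A2, COX5B and NDUFAF8. Members, gene lists and marker lists were chosen with earlier results of these data known. Genes named were all mitochondrially encoded members, members called between genotypes or in an interaction, the 5 largest called rises and falls of nuclear members in each wild-type interval, paralogue families of complexes IV and V, complex II subunits and members nearest the level threshold. Other genes were named after their values were seen. Sums over members were not tested. Alternatives were DESeq2 1.42.0 (test or size factors), limma 3.58.1 voom, no filter, library sizes without mitochondrial genes, only the groups compared, no shallow libraries, the age score as a covariate and a replicate block. Adjusted p-values that DESeq2 left out stayed missing.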

Additional observations from a re-analysis of the deposited data

Results flagged for a closer look

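Of 96 sets of 6 to 9 values examined for a distant embryo, 12 held one by Dixon's test, which chance gives in about 1 of 20 independent sets. The sets were 3 summed values and 13 mitochondrially encoded genes in the same 6 groups of embryos. They are linked, so their number is not read against that rate. Mutant embryo 5 at 36 hpf accounted for 4 of the 12. It had the lowest mitochondrially encoded share at 2.82% of counts (others 3.10% to 3.35%), 400.1 CPM of mt-atp8 (others 96.5 to 187 CPM), 669 CPM of mt-nd3 (others 1734 to 2764 CPM) and 2109 CPM of mt-nd4 (others 1478 to 1673 CPM). Mutant embryo 5 at 24 hpf accounted for 3, with 3550 CPM of mt-co1 (others 4476 to 5305 CPM), 7467 CPM of mt-co2 (others 4739 to 5980 CPM) and 161 CPM of mt-atp8 (others 49.8 to 102 CPM). The shallow wild-type embryo 9 at 48 hpf accounted for 3, with shares of 3.48% for mitochondrially encoded members (others 3.97% to 4.40%) and 1.99% for nuclear members (others 2.25% to 2.47%) and 2107 CPM of mt-nd3 (others 2694 to 3207 CPM). Wild-type embryo 1 at 24 hpf read 75.9 CPM of mt-nd5 (others 120 to 141 CPM), and wild-type embryo 6 at 36 hpf read 374 CPM of mt-nd6 (others 588 to 763 CPM).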

How the results depend on the processing

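Between genotypes, DESeq2 called 1 nuclear member higher at 24 hpf. At 48 hpf a fit on only the groups compared called 2 mitochondrially encoded members and 1 nuclear member lower, and the age score as a covariate called 3 nuclear members higher (atp5mf, atp5pf and ndufab1a). For wild types from 24 to 36 hpf, 5 mitochondrially encoded members were called higher without the shallow libraries, and 11 (only the groups compared) or 33 (without mutant embryos 5) nuclear members. From 36 to 48 hpf only the groups compared gave 5 mitochondrially encoded members, and nuclear members called higher were 13 with DESeq2 size factors, 17 with DESeq2, 22 with only the groups compared and 13 without the shallow libraries. For mutants from 24 to 36 hpf the shallow libraries' removal gave 46 nuclear members higher and 1 lower. From 36 to 48 hpf DESeq2, limma voom and the replicate block each called 2 mitochondrially encoded members. Nuclear members called higher there were 3 with DESeq2 size factors, 3 with DESeq2, 8 with only the groups compared and 2 without the shallow libraries, and 2 were lower with only the groups compared. The genotype estimate of mt-co1 at 48 hpf turned positive without the filter (0.0043), with only the groups compared (0.0081), with the replicate block (0.014) and without mutant embryos 5 (0.011), and with the age score mt-nd3 gave 0.16 and mt-nd4l 0.14. The cause was not tested. Shares of all genes called were not taken for these alternatives, so their counts of members have no background beside them.

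Of 340 values for 34 named genotype results, 331 kept direction and side of the threshold, 3 passed newly and 6 turned. None of these 34 passed in the main fit, so a kept side means only that the result stayed uncalled. A change in size was not counted, and a missing adjusted p was taken as uncalled. Of 387 values for 43 named age results, 356 kept both and 31 no longer passed. These 43 were named because they had passed, so none could pass newly. Replicate numbers did not pair the embryos: deviations of same-numbered embryos correlated between -0.068 and 0.072, and 8 of 48 embryos correlated best with their own number. Groups held 6 to 9 embryos, so single embryos were not left out one by one. Removal of mutant embryos 5 and equal weighting of members were chosen after seeing the data. Depth limits cox4i1l, cox5b2 and cox8b, which held 0 to 12 counts in the shallow libraries.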
